A study of Mus musculus with 18 samples.

Results

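The genes described here are 10 translation factor genes whose mRNAs belong to the TOP (terminal oligopyrimidine) class, namely Eef1a1, Eef1b2, Eef1g, Eef2, Eif3e, Eif3f, Eif3h, Eif4b, Pabpc1 and Tpt1. They were chosen by symbol, and all 10 were found among the 21954 genes of the count table and among the 12514 that passed the filter on low counts. The sequenced RNA came from macrophages grown from the bone marrow of mice carrying a knockout of the ribosomal protein gene Rpl13a (L13a KO) and of wild type (WT) mice, which the titles call control. The 6 groups of 3 libraries were L13a KO cells treated with IFN, L13a KO cells treated with IL4, L13a KO cells left untreated, WT cells treated with IFN, WT cells treated with IL4, and WT cells left untreated. The titles name the cytokines as IFN and IL4, and other labels call them M1 and M2 cytokines, without the type of IFN, a dose or a duration. The series title calls the knockout macrophage-specific without naming the Cre driver or the age of the mice. Libraries carry the numbers of their titles, so that in both genotypes 1 to 3 were untreated, 4 to 6 received IFN and 7 to 9 received IL4. The labels do not state whether replicate libraries represent different mice or dishes, so the p-values measure the spread between these libraries, which may be technical.

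TOP mRNAs begin with a C followed by an unbroken run of pyrimidines, and nearly all mRNAs for ribosomal proteins and several for translation factors have this start. The kinase complex mTORC1 controls the translation of these mRNAs through the RNA-binding protein LARP1, which holds the cap and the run of pyrimidines when mTORC1 is inactive and also affects how stable the mRNAs are. RNA sequencing of whole cells measures how abundant these mRNAs are, not how much they are translated. In bulk samples fewer cells of a type and less RNA per cell cannot be told apart.

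The promoter table from RefSeq (build GRCm38.p6) held 6 of the 10 genes and Rpl13a, and did not match Eef1g, Eif3e, Eif3h or Pabpc1. The stretches below, for 5 of these genes and Rpl13a, are shown because a pyrimidine run at the start defines the class. Each is 30 bases of the transcribed strand, 5′ to 3′, and the capitals mark the longest run of C and T that begins with C, is at least 5 bases long and lies within 50 bases of the RefSeq start on that strand.
Eif3f: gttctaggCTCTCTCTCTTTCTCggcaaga
Eef1a1: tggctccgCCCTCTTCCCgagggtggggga
Eif4b: agactccaCCCCTTCggccacatgtcgcgc
Tpt1: cggtgacgtagccgagcgtgCCCTCTatat
Eef1b2: tgcgtccgagcgCTTTCgttcaactccggc
Rpl13a: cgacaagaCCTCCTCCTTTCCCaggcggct
These lie, on GRCm38.p6, for Eif3f at chr7:108934403-108934432 on the plus strand, Eef1a1 at chr9:78481708-78481737 on the minus strand, Eif4b at chr15:102073727-102073756 on the plus strand, Tpt1 at chr14:75845276-75845305 on the plus strand, Eef1b2 at chr1:63176851-63176880 on the plus strand, and Rpl13a at chr7:45128722-45128751 on the minus strand. With position 1 as the first transcribed base in RefSeq, the run of Eif3f covered positions -4 to 11 and was 15 bases long, and that of Eef1a1 covered positions -5 to 5 and was 10 bases long. Both therefore spanned the annotated start. The run of Rpl13a began at position 3 and had 14 bases. In Tpt1 the run began at position 41 with 6 bases, in Eef1b2 at position 33 with 5 bases, and in Eif4b at position -38 with 7 bases, so these runs lay away from the annotated start. A run of at least 5 bases occurred in 79.7% of the 27025 genes of the table, and one of at least 9 bases in 22.7% of them, in 2 of the 6 factor genes and in 44 of 60 ribosomal protein genes (73.3%). A C at position 1 followed by at least 4 pyrimidines was searched on the transcribed strand. It was present in 1 of the 6 genes, Eif3f, in 3.01% of all genes and in 23.3% of the ribosomal protein genes. The letters describe these windows only, and which start these macrophages use was not measured.

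By gene annotation (GENCODE vM21, GRCm38), all 10 are protein-coding genes. The elongation factor genes are Eef1a1 (ENSMUSG00000037742) at chr9:78478449-78489151 on the minus strand, Eef1b2 (ENSMUSG00000025967) at chr1:63176825-63180486 on the plus strand, Eef1g (ENSMUSG00000071644) at chr19:8967041-8978479 on the plus strand, and Eef2 (ENSMUSG00000034994) at chr10:81176631-81182498 on the plus strand. The initiation factor genes are Eif3e (ENSMUSG00000022336) at chr15:43250058-43282719 on the minus strand, Eif3f (ENSMUSG00000031029) at chr7:108934417-108942951 on the plus strand, Eif3h (ENSMUSG00000022312) at chr15:51786558-51865523 on the minus strand, and Eif4b (ENSMUSG00000058655) at chr15:102073773-102097173 on the plus strand. The remaining pair are Pabpc1 (ENSMUSG00000022283) at chr15:36595661-36609668 on the minus strand and Tpt1 (ENSMUSG00000060126) at chr14:75845093-75848525 on the plus strand. Genes of this class have processed copies elsewhere in the genome, and the annotation names 6 pseudogenes of Tpt1, 0 of which have a row in the count table. Only copies named after their gene were looked for. How reads were shared between copies was not measured, and it may affect the counts of these genes.

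The targeted gene and the cells were checked in every library. Rpl13a had 248, 189 and 425 CPM in KO libraries 4, 5 and 6, 206, 333 and 606 CPM in KO libraries 7, 8 and 9, and 156, 201 and 401 CPM in KO libraries 1, 2 and 3. In WT libraries it had 437, 552 and 618 CPM with IFN, 598, 743 and 867 CPM with IL4, and 617, 745 and 746 CPM untreated. All KO libraries were below all WT libraries untreated and with IFN, while with IL4 KO library 9 was just above WT library 7. Lyz2, whose locus carries the Cre gene in a widely used myeloid Cre line, was between 0.682 and 7.12 CPM in KO libraries and between 2881 and 12108 CPM in WT libraries. The macrophage markers Adgre1, Csf1r, Cd68 and Itgam were present in every library, at 857 CPM or more, and the other 2 of the 6 markers were lower, with Mertk at 18.9 to 135 CPM and Fcgr1 at 14.7 to 1355 CPM. In untreated cells Fcgr1, a receptor for immunoglobulin, averaged 56.5 CPM in KO and 107 CPM in WT (n = 3 each, log2 -0.92, adjusted p = 0.37, SE 0.28), while the other 5 markers were above 0 on the log2 scale. Of 14 fibroblast markers 10 or 11 had a mean above 1 CPM in each group, as did all 4 markers of dividing cells, and their summed levels are given beside the results. Summed markers of neutrophils, T cells, B cells and red cells were at most 3.70 CPM in every library, those of osteoblasts between 5.84 and 54.8 CPM, and those of dendritic cells between 8.09 and 129 CPM. Total expected counts ran from 18098711 to 28477342 per library, and the 10 genes took between 1.12% and 1.99% of them. Transcripts of Y-linked genes were summed to 134 to 191 CPM in WT libraries 1, 4, 5, 7 and 8 and to at most 3.19 CPM in every other library. The sex of the cells therefore differed between libraries of the WT groups. No KO library held such levels, so sex also differed in part between the genotypes compared. WT untreated libraries 2 and 3 were closer to each other than any other pair of one group (chi-square divided by degrees of freedom 6.01, against 51.6 to 185 in the other pairs) and were kept as separate libraries. The untreated WT group may therefore hold fewer than 3 independent samples.

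The 10 mRNAs were abundant in macrophages, and their order by level was much the same in every group. Levels that allow for transcript length are given in TPM as the authors deposited them. Eef1a1, which carries aminoacyl-tRNA to the ribosome, had the highest mean level of the 10, at 7968 TPM over the 18 libraries, and ranked number 10 of all genes. Tpt1, which encodes the translationally controlled tumour protein, ranked number 21 with 3750 TPM. Eef2, which moves the ribosome along the mRNA, had 1445 TPM, and Pabpc1, which binds the poly(A) tail, had 881 TPM. Eef1b2 had 575 TPM and Eef1g 426 TPM, and both encode subunits of the complex that reloads eEF1A with GTP. Eif3h had 345 TPM, Eif3e 181 TPM and Eif3f 169 TPM, and all encode subunits of eIF3, the large complex that brings the small ribosomal subunit to the mRNA. Eif4b, a cofactor of the helicase that opens the leader of the mRNA, had 152 TPM. In all 6 groups Eef1a1, Tpt1 and Eef2 were the top genes in that order, and the ranges of these neighbours did not overlap. Pabpc1, Eef1b2, Eef1g and Eif3h followed in that order in all 6 groups, and the ranges of Eef1g and Eif3h overlapped in 5 of them, the exception being WT cells with IL4. Eif3e, Eif3f and Eif4b came last in every group, in changing order. Across the 18 libraries, the ratio of the highest to the lowest TPM of a gene ran from 1.43 for Eif3f to 2.80 for Eef1g.

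**Figure D1:**
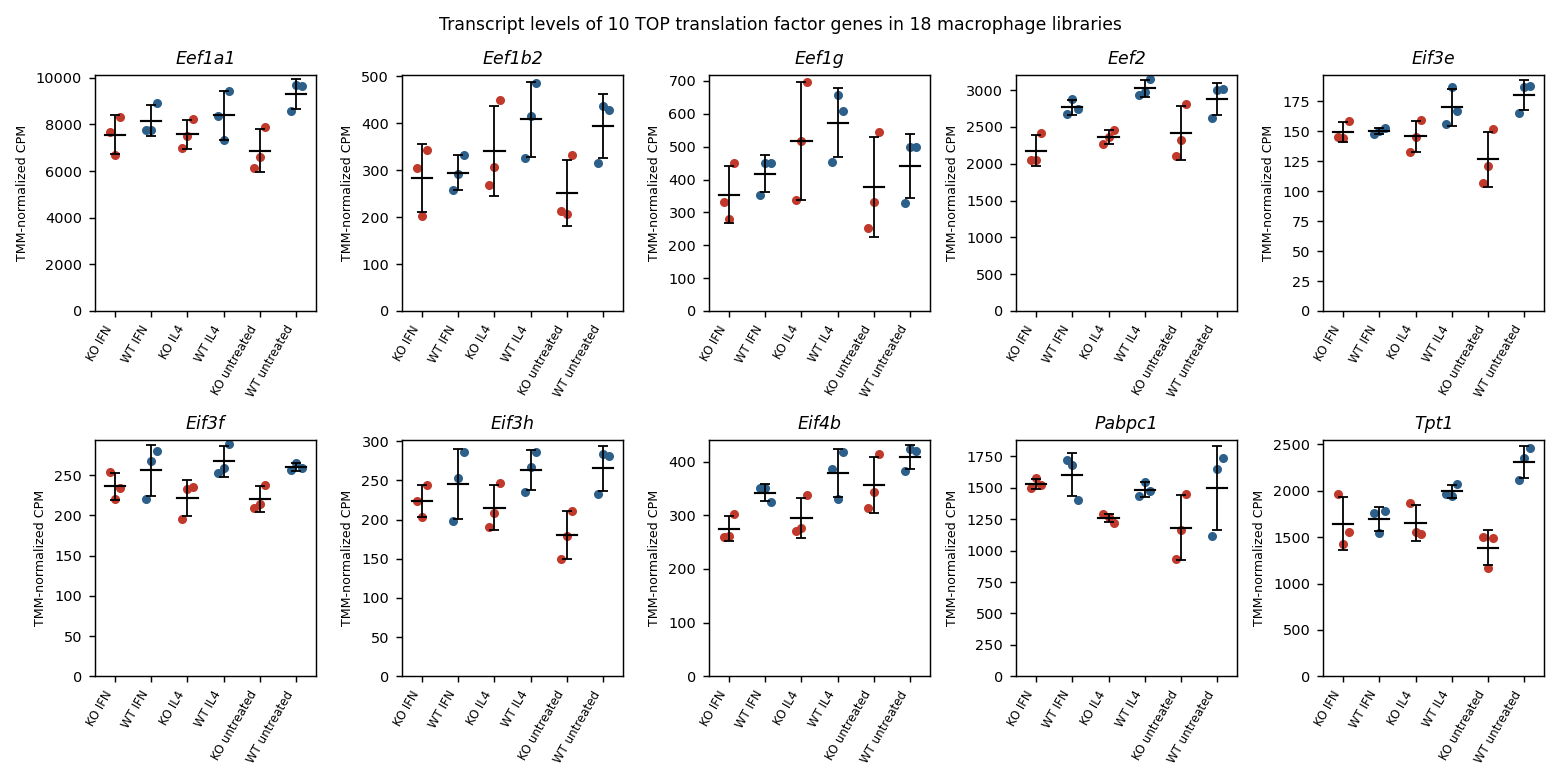
Levels of the 10 genes in TMM-normalized counts (CPM, vertical axis from 0) in each library, with L13a KO in red and WT in blue. Points are libraries in the order of their numbers, and bars are group means ± SD (n = 3). In untreated cells the KO points of Eef1a1, Eif3e, Eif3f, Eif3h and Tpt1 lie below all WT points.

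In untreated cells every one of the 10 mRNAs was lower in L13a KO than in WT macrophages, but none passed the test across all genes. The median log2 fold change of the 10 was -0.39, against 0.01 for all genes tested, and single values ran from -0.74 for Tpt1 to -0.20 for Eif4b. For 5 genes, Eef1a1, Eif3e, Eif3f, Eif3h and Tpt1, all 3 KO libraries lay below all 3 WT libraries, which was the case for 7.66% of all genes tested. An unadjusted p under 0.05 with a lower level was reached by 5 genes (Eef1a1, Eef1b2, Eif3e, Eif3h and Tpt1), against 4.51% of all genes, and an adjusted p under 0.05 by 0 of the 10, against 0.0799% of all genes (10 genes). All p-values here come from the quasi-likelihood test of edgeR, adjusted over the 12514 genes by Benjamini-Hochberg. By DESeq2, Tpt1 (adjusted p = 0.000279) and Eif3e (adjusted p = 0.0397) passed, of 83 genes called in all.

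Among the elongation factors, Eef1a1 had 6125, 6592 and 7904 CPM in untreated L13a KO libraries 1, 2 and 3, against 8561, 9680.3 and 9655 CPM in untreated WT libraries 1, 2 and 3. The groups did not overlap (log2 fold change -0.44, SE 0.16, adjusted p = 0.518). Eef1b2 had 213, 206 and 332 CPM in untreated L13a KO libraries 1, 2 and 3, against 315, 437 and 428 CPM in untreated WT libraries 1, 2 and 3. KO library 3 reached the range of the WT libraries while KO libraries 1 and 2 were below it (log2 fold change -0.65, SE 0.25, adjusted p = 0.527). Eef1g had 252, 332 and 546 CPM in untreated L13a KO libraries 1, 2 and 3, against 328, 498 and 499 CPM in untreated WT libraries 1, 2 and 3. Here KO library 3 was the highest of all 6 libraries, and the 95% interval of the log2 fold change, -0.86 to 0.40, spanned 0 (log2 fold change -0.23, SE 0.30, adjusted p = 0.899). Eef2 had 2105, 2319 and 2816 CPM in untreated L13a KO libraries 1, 2 and 3, against 2624, 3003 and 3012 CPM in untreated WT libraries 1, 2 and 3. KO libraries 1 and 2 were below the WT range and KO library 3 within it (log2 fold change -0.25, SE 0.14, adjusted p = 0.729).

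Among the initiation factors the 3 subunits of eIF3 were each lower in all KO libraries. Eif3e had 107, 121 and 152 CPM in untreated L13a KO libraries 1, 2 and 3, against 166, 187 and 188 CPM in untreated WT libraries 1, 2 and 3 (log2 fold change -0.51, SE 0.13, adjusted p = 0.223). Eif3h had 150.3, 179 and 212 CPM in untreated L13a KO libraries 1, 2 and 3, against 233, 283 and 282 CPM in untreated WT libraries 1, 2 and 3 (log2 fold change -0.56, SE 0.16, adjusted p = 0.324). Neither gene had a KO library within the WT range, and both had their lowest value in KO library 1. Eif3f had 209, 214 and 238 CPM in untreated L13a KO libraries 1, 2 and 3, against 257, 265 and 258 CPM in untreated WT libraries 1, 2 and 3 (log2 fold change -0.24, SE 0.12, adjusted p = 0.689). Its groups did not overlap either, with a KO mean at 84.7% of the WT mean, compared with 70.2% for Eif3e and 67.8% for Eif3h. Eif4b had 313, 342 and 415 CPM in untreated L13a KO libraries 1, 2 and 3, against 383, 424 and 420.0 CPM in untreated WT libraries 1, 2 and 3 (log2 fold change -0.20, SE 0.14, adjusted p = 0.807). KO library 3 of Eif4b lay within the WT range.

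Of the remaining pair, Pabpc1 had 934, 1166 and 1449.7 CPM in untreated L13a KO libraries 1, 2 and 3, against 1119, 1649 and 1738 CPM in untreated WT libraries 1, 2 and 3. The groups overlapped, since WT library 1 was below KO libraries 2 and 3 (log2 fold change -0.34, SE 0.18, adjusted p = 0.709). Tpt1 had 1497, 1166 and 1493 CPM in untreated L13a KO libraries 1, 2 and 3, against 2116, 2349.7 and 2459 CPM in untreated WT libraries 1, 2 and 3. The groups stood apart, with a KO mean at 60.01% of the WT mean (log2 fold change -0.74, SE 0.16, adjusted p = 0.108, 95% interval -1.07 to -0.41). By p-value Tpt1 ranked number 28 of the 12514 genes in this comparison and Eif3e number 64.

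The spread within the untreated groups was shared by the genes. KO library 3 was the highest KO library for 9 of the 10, the exception being Tpt1, and WT library 1 was the lowest WT library for all 10. Without KO library 3 the median of the 10 was -0.56, and without KO library 1 it was -0.27, with all 10 below 0 in either case. Without WT library 1, 2 or 3 the median was -0.50, -0.31 or -0.30, again with all 10 below 0. Genes of the 10 with an unadjusted p under 0.05 by edgeR then numbered 6, 3 or 3, against 5 with all libraries. Calls over all genes numbered 11, 1 or 6, and the share of all genes at the unadjusted threshold was not counted in these fits. Summed fibroblast markers were 288, 130 and 576 CPM in KO libraries 1, 2 and 3, against 974, 1083 and 1114 CPM in WT libraries 1, 2 and 3. Of the 14 fibroblast markers 0 were without counts in KO and 1 in WT. Summed markers of dividing cells were 174, 421 and 703 CPM in KO libraries, against 486, 650 and 669 CPM in WT libraries, with all 4 present. The fibroblast sums of the genotypes did not overlap and those of dividing cells did. Osteoblast markers summed to 20.9, 20.2 and 19.3 CPM in KO libraries, against 20.3, 54.8 and 46.0 CPM in WT libraries. Of the 4 tested, 3 were below 0 on the log2 scale and 1 was above 0, with all its KO libraries above all WT libraries. The 2 that passed were lower, Alpl with 0.289 ± 0.217 CPM in KO and 4.45 ± 1.64 CPM in WT (adjusted p = 0.00861) and Ibsp with 0.0612 ± 0.0691 CPM in KO and 19.4 ± 15.9 CPM in WT (SD, n = 3 each, adjusted p = 0.0152). Dendritic cell markers summed to 19.2, 14.96 and 15.4 CPM in KO libraries, against 8.09, 9.67 and 11.6 CPM in WT libraries, without overlap. Of the 4 tested, 3 were above 0 and 1 was below 0, with all its KO libraries below all WT libraries. Only 1 of the 6 dendritic cell markers had a mean above 1 CPM in each genotype. The part of these markers in the result was not tested. Libraries 3, 6 and 9 held the highest fibroblast sums among the KO libraries, and all libraries with these numbers were left out, a choice made after seeing the data. All 10 genes were then below 0, with a median of -0.48 and 0 passing the test. This left fibroblast sums of 288 and 130 CPM in KO against 974 and 1083 CPM in WT, and removed the KO library that was highest for 9 of the 10 genes. The fit therefore does not test the part of the fibroblast markers.

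With IFN the difference between genotypes was small for most of the genes. The median log2 fold change of the 10 was -0.11, against 0.02 for all genes, with all 10 below 0 and values from -0.35 to -0.01. KO libraries lay below all WT libraries for Eef2 and Eif4b, against 5.71% of all genes, and the same 2 genes had an unadjusted p under 0.05 with a lower level, against 3.55% of all genes. An adjusted p under 0.05 was reached by 0 of the 10, against 0.0639% of all genes (8 genes). Eef2 had 2048, 2057 and 2417 CPM in IFN-treated L13a KO libraries 4, 5 and 6, against 2679.8, 2882 and 2745 CPM in IFN-treated WT libraries 4, 5 and 6 (log2 fold change -0.35, SE 0.14, adjusted p = 0.751). Eif4b had 260.0, 262 and 302 CPM in IFN-treated L13a KO libraries 4, 5 and 6, against 351, 351 and 324 CPM in IFN-treated WT libraries 4, 5 and 6 (log2 fold change -0.32, SE 0.14, adjusted p = 0.772). In both genes the highest KO library was 6, and it remained under the lowest WT library. Tpt1 had 1966, 1422 and 1553 CPM in IFN-treated L13a KO libraries 4, 5 and 6, against 1759.8, 1547 and 1779 CPM in IFN-treated WT libraries 4, 5 and 6, and the groups overlapped (log2 fold change -0.04, SE 0.16, adjusted p = 1). Eif3e had 145, 144 and 159 CPM in IFN-treated L13a KO libraries 4, 5 and 6, against 148, 150.2 and 153 CPM in IFN-treated WT libraries 4, 5 and 6, again with overlap (log2 fold change -0.01, SE 0.13, adjusted p = 1). The KO means of Tpt1 and Eif3e were 97.2% and 99.4% of the WT means. Of the other 6 genes, whose log2 fold changes ran from -0.24 for Eef1g to -0.05 for Eef1b2, all had overlapping groups and adjusted p = 1. This median depended on single libraries, being -0.044 without WT library 6, -0.070 without KO library 5, -0.18 without WT library 4 and -0.19 without KO library 6, and 7 to 10 genes were below 0 in these fits. Fibroblast markers summed to 49.9, 289.7 and 1037 CPM in KO libraries 4, 5 and 6, against 215, 136 and 225 CPM in WT libraries 4, 5 and 6. Dividing cell markers summed to 169, 152 and 488 CPM in KO libraries, against 538, 588 and 507 CPM in WT libraries. Their part in these values was not tested. With a covariate that marks libraries with Y-linked transcripts, the median of the 10 was -0.27, with 0 passing the test. The covariate marked WT libraries 4 and 5 here and no KO library. It was therefore estimated among WT libraries alone, and cannot separate sex from other differences between those libraries.

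With IL4 all 10 mRNAs were again lower in KO macrophages, and none passed the test. The median was -0.27, against 0.00 for all genes, with a range from -0.36 for Eif4b to -0.15 for Eef1a1. KO libraries lay below all WT libraries for Eef2, Eif3f, Pabpc1 and Tpt1, against 2.73% of all genes, and Eef2, Eif3f and Eif4b had an unadjusted p under 0.05 with a lower level, against 1.17% of all genes. An adjusted p under 0.05 was reached by 0 of the 10, against 0.0639% of all genes (8 genes). Eef2 had 2265, 2367 and 2464 CPM in IL4-treated L13a KO libraries 7, 8 and 9, against 2939.7, 2981 and 3152 CPM in IL4-treated WT libraries 7, 8 and 9 (log2 fold change -0.35, SE 0.14, adjusted p = 1). Eif3f had 195, 233 and 236 CPM in IL4-treated L13a KO libraries 7, 8 and 9, against 253, 259 and 289 CPM in IL4-treated WT libraries 7, 8 and 9 (log2 fold change -0.27, SE 0.12, adjusted p = 1). All KO libraries of both genes were under the lowest WT library. Pabpc1 had 1289, 1269 and 1223 CPM in IL4-treated L13a KO libraries 7, 8 and 9, against 1432, 1546 and 1479 CPM in IL4-treated WT libraries 7, 8 and 9 (log2 fold change -0.24, SE 0.18, adjusted p = 1). Tpt1 had 1873, 1555 and 1534 CPM in IL4-treated L13a KO libraries 7, 8 and 9, against 1965, 1943 and 2075 CPM in IL4-treated WT libraries 7, 8 and 9 (log2 fold change -0.27, SE 0.16, adjusted p = 1). These groups did not overlap, and KO library 7 of Tpt1 came close to the lowest WT library. Eif4b had 271, 277 and 337 CPM in IL4-treated L13a KO libraries 7, 8 and 9, against 387, 329 and 418 CPM in IL4-treated WT libraries 7, 8 and 9 (log2 fold change -0.36, SE 0.14, adjusted p = 1). Only KO library 9 of Eif4b reached the WT range. The other 5 genes had overlapping groups, with log2 fold changes from -0.29 for Eif3h to -0.15 for Eef1a1. In IL4-treated cells libraries of the same number deviated together between genotypes. With the number as a block 4 of the 10 genes had an unadjusted p under 0.05. The share of all genes at that threshold was not counted in this fit. The adjusted test was passed by 0 of the 10, while calls over all genes numbered 27 with the block and 8 without it. Fibroblast markers summed to 312, 238 and 1477 CPM in KO libraries 7, 8 and 9, against 275, 470.2 and 725 CPM in WT libraries, and dividing cell markers to 185, 468 and 688 CPM in KO libraries, against 546, 619.6 and 567 CPM in WT libraries. Dendritic cell markers summed to 37.7 to 50.7 CPM in KO libraries, against 16.3 to 30.8 CPM in WT libraries, with 3 of the 4 tested above 0 and 1 below. Their part was not tested.

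Averaged over the 3 treatments, the KO against WT difference of the 10 genes had a median of -0.27, against 0.01 for all genes, and a narrow range from -0.35 for Tpt1 to -0.21 for Eef1g. Lower levels with an unadjusted p under 0.05 were found for 8 genes, all but Eef1g and Pabpc1, against 5.8% of all genes, and an adjusted p under 0.05 for 0 of the 10, against 0.392% of all genes (49 genes). The lowest adjusted p-values were those of Eef2 (log2 fold change -0.32, SE 0.08, adjusted p = 0.129), Tpt1 (log2 fold change -0.35, SE 0.09, adjusted p = 0.137), Eif4b (log2 fold change -0.29, SE 0.08, adjusted p = 0.156) and Eif3h (log2 fold change -0.33, SE 0.09, adjusted p = 0.184). By DESeq2 3 genes passed in this comparison, Eef2 (adjusted p = 0.00189), Tpt1 (adjusted p = 0.00538) and Eif4b (adjusted p = 0.0426), of 201 genes called in all. These fits took all libraries as independent across treatments. Libraries 3, 6 and 9 were the highest of their KO groups for 9, 7 and 8 of the 10 genes. In WT groups they were the highest for 5, 7 and 7. The labels do not state whether treatments share a source of cells. If they do, these standard errors may be too small. The treatments contributed differently. Eef2 had close values of -0.35 with IFN, -0.35 with IL4 and -0.25 untreated, whereas Tpt1 had -0.04 with IFN, -0.27 with IL4 and -0.74 untreated.

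**Figure D2:**
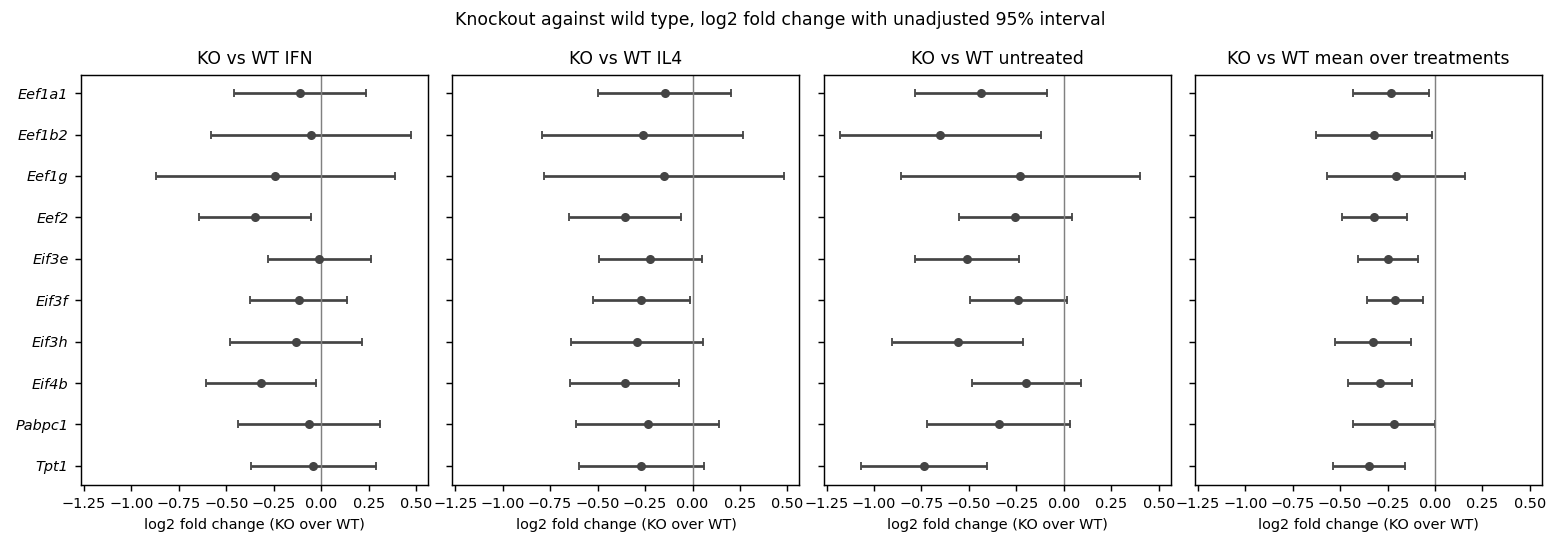
Log2 fold change of L13a KO over WT for each gene (horizontal axis) with IFN, with IL4, untreated and averaged over treatments. Points are edgeR estimates from 3 libraries a group, and bars are unadjusted 95% intervals. All points lie below 0, and the untreated values spread from -0.74 to -0.20.

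The response to IFN was small in these 10 mRNAs in both genotypes, while 2697 genes changed in KO and 2332 in WT. In KO macrophages the median log2 fold change of IFN-treated over untreated cells was 0.16, with 7 of 10 above 0, and in WT macrophages it was -0.15, with 9 of 10 below 0. The medians of all genes were -0.03 in KO and -0.02 in WT. An adjusted p under 0.05 was reached by 0 of the 10 in either genotype, against 21.6% of all genes in KO and 18.6% in WT. In KO cells, Eif4b was lower with IFN in every library, at 260.0, 262 and 302 CPM in IFN-treated and 313, 342 and 415 CPM in untreated KO cells (log2 fold change -0.38, SE 0.14, adjusted p = 0.0605), against 15.7% of all genes with such a separation downward. Pabpc1 was the gene above its untreated range, at 1498, 1578 and 1524 CPM in IFN-treated and 934, 1166 and 1449.7 CPM in untreated KO cells (log2 fold change 0.37, SE 0.18, adjusted p = 0.155), against 18.8% of all genes with such a separation upward. In WT cells Eif3e, Eif4b and Tpt1 lay below all untreated libraries, against 18.6% of all genes. Tpt1 had 1759.8, 1547 and 1779 CPM in IFN-treated and 2116, 2349.7 and 2459 CPM in untreated WT cells (log2 fold change -0.45, SE 0.16, adjusted p = 0.0578). Its adjusted p was just above the threshold, and it passed by DESeq2 (adjusted p = 0.00837), which called 2774 genes. Eif3e had 148, 150.2 and 153 CPM in IFN-treated and 166, 187 and 188 CPM in untreated WT cells (log2 fold change -0.26, SE 0.13, adjusted p = 0.179). Eif4b had 351, 351 and 324 CPM in IFN-treated and 383, 424 and 420.0 CPM in untreated WT cells (log2 fold change -0.26, SE 0.14, adjusted p = 0.218), so that this gene was lower with IFN in both genotypes. Eif4b in KO cells passed by DESeq2 (adjusted p = 0.0288), which called 3075 genes. It also passed by edgeR without untreated KO library 1 (adjusted p = 0.0351), where 2288 of all genes were called. In the other edgeR fits without 1 library it did not pass.

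The scale mattered for the IFN comparison in KO cells. Scaled by library totals alone, the median of the 10 was -0.12 and the median of all genes -0.32, and on log2(TPM + 1) by limma they were -0.20 and -0.31. On these scales 8 of the 10 genes were below 0, against 3 after TMM normalization, and on each scale their median was above that of all genes. Leaving out 1 library gave medians from 0.046, without untreated KO library 1, to 0.27, without untreated KO library 3. In WT cells this range was -0.27, without untreated WT library 1, to -0.10, without untreated WT library 2.

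Set against each other, the IFN responses of the genotypes lay furthest apart for Tpt1, Eef1b2 and Eif3e, and none passed the test. The difference of responses, KO minus WT, had a median of 0.30 over the 10 genes, against -0.01 for all genes, with 7 above 0. Tpt1 had the largest value (log2 0.70, SE 0.22, unadjusted p = 0.00613, adjusted p = 0.775) and ranked number 97 by p-value, Eef1b2 had log2 0.60 (unadjusted p = 0.11), and Eif3e had log2 0.50 (SE 0.18, unadjusted p = 0.0143, adjusted p = 0.852). Tpt1 and Eif3e had an unadjusted p under 0.05 with a higher value, against 3.41% of all genes with a higher and 1.52% with a lower value. By edgeR 0 of the 12514 genes passed the adjusted test for this difference, while 427 had a higher and 190 a lower value at an unadjusted p under 0.05, and DESeq2 called 26 genes. The difference uses the same untreated libraries as the comparison of untreated KO with untreated WT, so it repeats that comparison in part. Its median was 0.19 without KO untreated library 1, 0.44 without KO untreated library 3 and 0.024 on log2(TPM + 1), where the median of all genes was -0.24.

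With IL4 the 10 mRNAs did not pass the test in either genotype, while 1186 genes changed in KO and 1063 in WT. In KO macrophages the median of the 10 was 0.17, with 8 above 0, and in WT macrophages -0.02, with 4 above 0, against 0.01 in KO and -0.01 in WT for all genes. An adjusted p under 0.05 was reached by 0 of the 10 in either genotype, against 9.48% of all genes in KO and 8.49% in WT. In KO cells Eef1g had 337, 518 and 696 CPM in IL4-treated and 252, 332 and 546 CPM in untreated libraries (log2 fold change 0.46, SE 0.30, adjusted p = 0.413), with wide overlap. Tpt1 in KO cells had 1873, 1555 and 1534 CPM in IL4-treated and 1497, 1166 and 1493 CPM in untreated libraries, higher in all 3 (log2 fold change 0.26, SE 0.16, adjusted p = 0.37), against 11.3% of all genes with such a separation. In WT cells Tpt1 had 1965, 1943 and 2075 CPM in IL4-treated and 2116, 2349.7 and 2459 CPM in untreated libraries, lower in all 3 (log2 fold change -0.21, SE 0.16, adjusted p = 0.503), against 14.7% of all genes. The difference of these responses was log2 0.47 for Tpt1 (unadjusted p = 0.0499, adjusted p = 1), the only one of the 10 with an unadjusted p under 0.05, against 1.4% of all genes with a higher and 0.591% with a lower value. The median of the difference over the 10 was 0.19, with 7 above 0, and edgeR called 0 genes, with 175 higher and 74 lower at an unadjusted p under 0.05 and 1 call by DESeq2. Without KO untreated library 1 this median was 0.061, without KO untreated library 3 it was 0.40 and without KO IL4 library 7 it was 0.34. Without WT untreated library 1, 2 or 3 it was 0.32, 0.11 or 0.090. The medians of the responses moved as well, to 0.068 in KO cells without KO untreated library 1 and to -0.14 in WT cells without WT untreated library 1, and to 0.051 in WT cells without WT untreated library 2. On log2(TPM + 1) the median in KO cells was -0.045, with 6 of 10 below 0, where the median of all genes was -0.16.

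**Figure D3:**
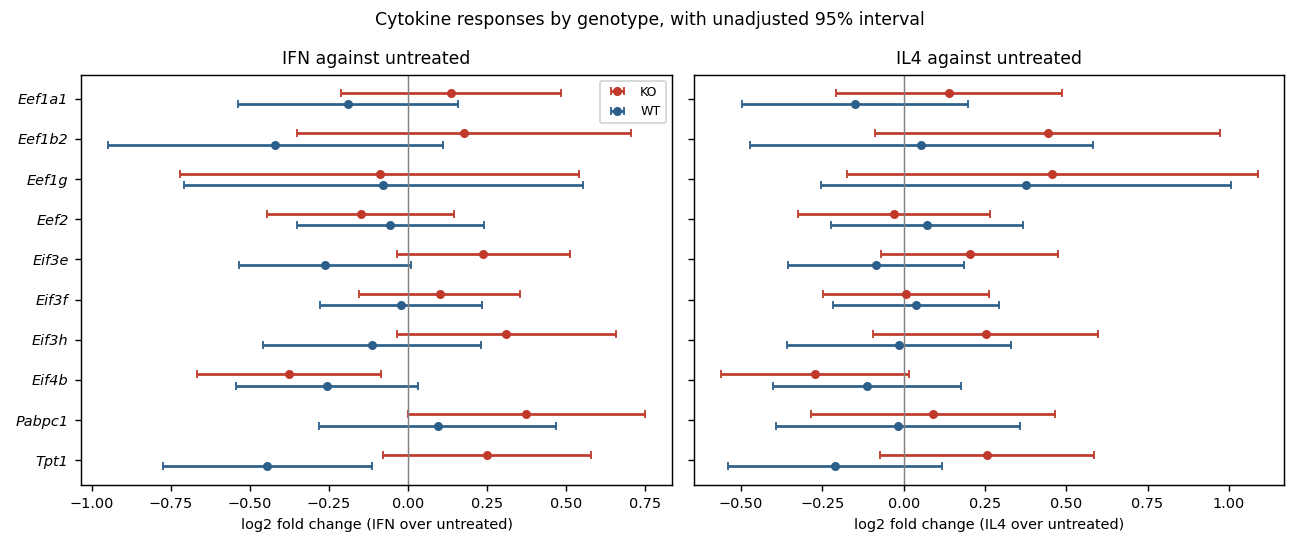
Log2 fold change of IFN-treated over untreated cells (left) and IL4-treated over untreated cells (right) for each gene, with KO in red above WT in blue. Points are edgeR estimates from 3 libraries a group and bars unadjusted 95% intervals. Tpt1 lies above 0 in KO and below 0 in WT for both cytokines, and Eif4b lies below 0 in both genotypes.

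The 10 mRNAs moved together from library to library. Over the 18 libraries all 45 pairs of the genes had a positive Pearson correlation of log2 CPM, with a median of 0.65 and a range from 0.21 to 0.89. These libraries share groups, so the values are a description. With the group means removed, each gene was set against the mean of the other 9, and r ran from 0.91 for Eef1g and Eef1b2 down to 0.50 for Pabpc1 and 0.08 for Tpt1. For Tpt1, which had the lowest value here, r was 0.62 with the group means kept.

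The mean of the 10 genes followed the mean of 81 cytosolic ribosomal protein mRNAs, the main members of the TOP class, with r 0.91 over the 18 libraries and 0.90 with group means removed. Among the genes outside the set whose log2 CPM was most like its mean over the 18 libraries were the ribosomal protein genes Rpl13a (r 0.95), Rpl6 (0.94) and Rps6 (0.94). Besides Rpl13a, which is not among the 81, 34 of the 50 most alike genes were among the 81 ribosomal protein genes, out of 12514 genes tested. The 50 also held H2afz (0.92), Cks1b (0.88) and Gins4 (0.87). Birc5, 1 of the 4 markers of dividing cells, ranked number 56 (0.86), so the pattern was not confined to TOP mRNAs. Rpl13a is the targeted gene, so its place includes the genotype itself. The factor gene with r closest to the mean of the ribosomal protein mRNAs within groups was Eef1b2 (0.94), and the lowest were Tpt1 (0.32) and Pabpc1 (0.30).

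**Figure D4:**
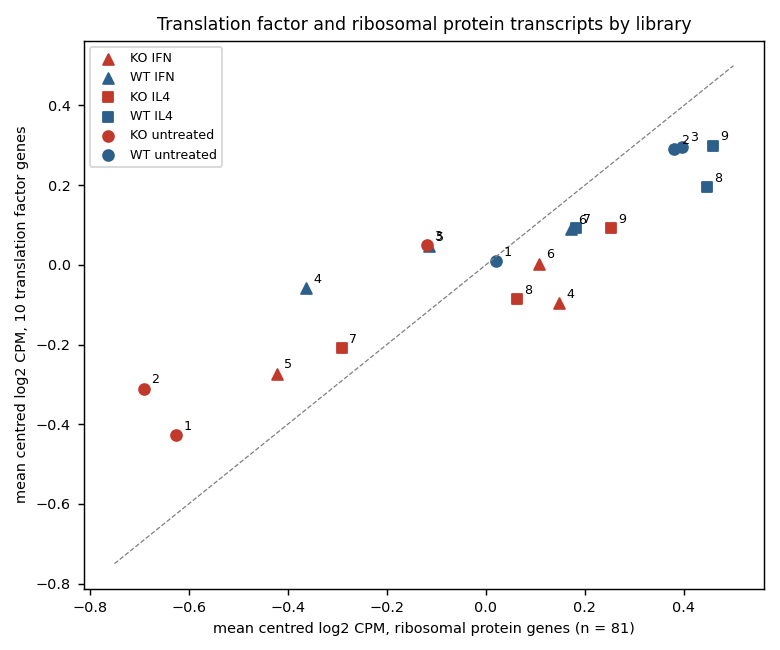
Mean centred log2 CPM of the 10 genes (vertical) against that of 81 ribosomal protein genes (horizontal) in each library, with library numbers, KO in red and WT in blue. The dashed line marks equal values. The means follow each other (r 0.91, n = 18), and untreated KO libraries 1 and 2 lie at the low end on both axes.

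The values of the 2 classes are given side by side here, and no test compared them. In untreated cells the ribosomal protein mRNAs had a median of -0.74 in KO against WT, with 80 of 81 below 0 and 1 passing the test, where the factor genes had -0.39. With IFN the medians were -0.01 for the ribosomal protein mRNAs and -0.11 for the factor genes, and with IL4 they were -0.32 and -0.27. In KO cells 21 of 81 ribosomal protein mRNAs passed as higher with IFN and 8 with IL4, with medians of 0.39 and 0.43, where 0 factor genes passed. Of all 12514 genes, 1579 passed as higher with IFN and 670 with IL4, while 21.6% and 9.48% passed in either direction. Library by library, the mean of the ribosomal protein mRNAs minus that of the factor genes, each centred over all libraries, was -0.20, -0.38 and -0.17 in untreated KO libraries, against 0.01, 0.09 and 0.10 in untreated WT libraries, and these groups did not overlap. With IFN it was 0.24, -0.15 and 0.10 in KO libraries, against -0.30, -0.16 and 0.08 in WT libraries, with overlap. With IL4 it was -0.08, 0.15 and 0.16 in KO libraries, against 0.09, 0.25 and 0.16 in WT libraries, with overlap.

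The 8 other TOP mRNAs that are neither ribosomal proteins nor among the 10 were set beside them. In KO against WT their median was -0.13 with IFN, -0.16 with IL4 and -0.41 untreated, and 0 of 8 passed in each. Naca, a subunit of the complex that guards nascent chains at the ribosome, had 240.4 ± 50.1 CPM in untreated KO and 389 ± 45.2 CPM in untreated WT cells (SD, n = 3 each, log2 -0.69, adjusted p = 0.237). Rack1, a protein of the small ribosomal subunit that is a scaffold for kinases, had 625 ± 138 CPM in untreated KO and 982 ± 86.5 CPM in untreated WT cells (SD, n = 3 each, log2 -0.65, adjusted p = 0.324).

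The other factor mRNAs had medians nearer to 0. The 11 other eIF3 subunits had a median of -0.15 in untreated KO against WT cells, with 7 below 0 and 4 above, where Eif3e, Eif3f and Eif3h had -0.51, -0.24 and -0.56. Eif3m (log2 -0.53, adjusted p = 0.304) and Eif3i (log2 -0.57, adjusted p = 0.326) had values as low as those of Eif3e and Eif3h, so low values were also found outside the 3 TOP subunits. With IFN and IL4 the medians of the other eIF3 subunits were -0.08 and -0.02. The 29 other initiation factors had a median of -0.01 untreated, with 15 below 0, and the lowest p-values were those of Eif2a, which was lower (log2 -0.54, adjusted p = 0.197), and of Eif4g1, which was higher (log2 0.23, adjusted p = 0.667). The 14 other elongation and termination factors had a median of -0.01, with 9 below 0. The lowest p-value among them was that of Eef1a2, an eEF1A form typical of muscle and neurons, which was higher (log2 1.66, adjusted p = 0.609), and Eef1d, which encodes another exchange subunit for eEF1A and is also among the 8 other TOP mRNAs, had log2 -0.33 (adjusted p = 0.82). In all 3 lists 0 genes passed in any KO against WT comparison. These medians are descriptions, and no test compared the lists.

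**Figure D5:**
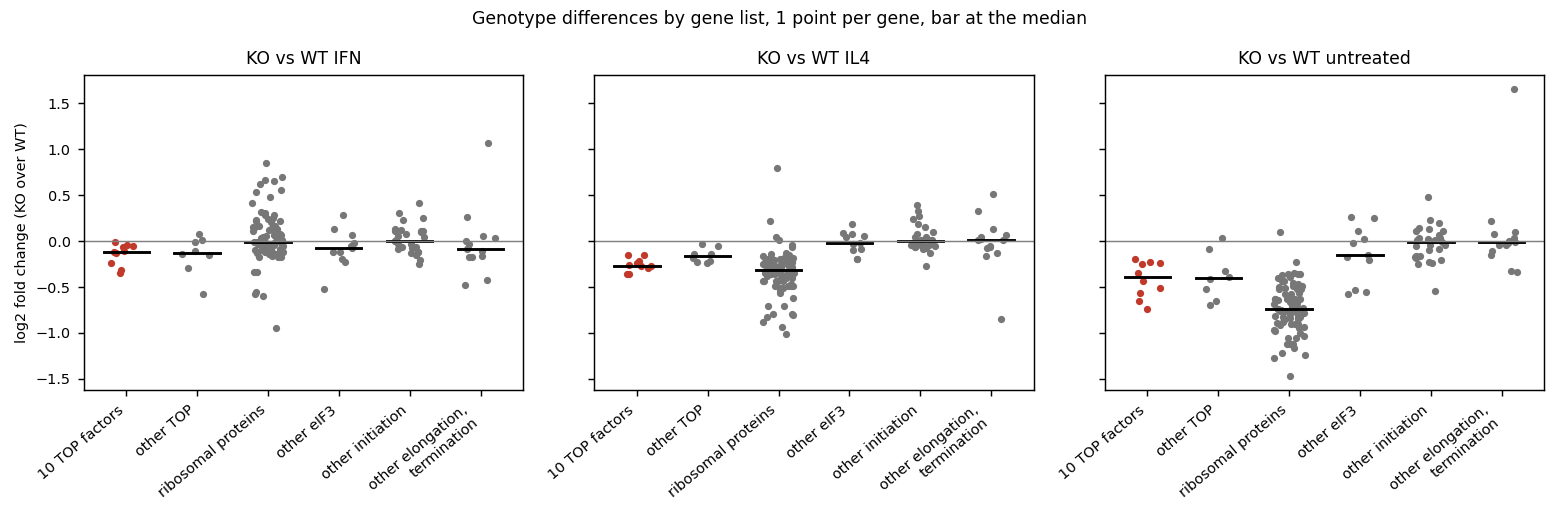
Log2 fold change of L13a KO over WT (vertical axis) for single genes of each list, with IFN, with IL4 and untreated. The 10 TOP factor genes are red, other genes grey, and black bars mark medians. In untreated cells the medians are -0.39 for the 10 genes, -0.74 for ribosomal protein genes and -0.01 for other initiation factors.

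Among 21 regulators of TOP mRNAs, including subunits of mTORC1 and its upstream control, 0 passed in any KO against WT comparison. With IFN, Larp1, which binds the TOP start, rose in KO cells to 163 ± 18.1 CPM, against 108 ± 5.37 CPM in untreated KO cells (SD, n = 3 each, log2 0.60, adjusted p = 0.00147). In WT cells it rose to 176 ± 14.6 CPM with IFN, against 79.2 ± 7.57 CPM untreated (SD, n = 3 each, log2 1.15, adjusted p = 4.44e-06). In untreated cells Larp1 was higher in KO than in WT without passing (log2 0.44, adjusted p = 0.256), and the difference of its IFN responses, KO minus WT, was log2 -0.54 (adjusted p = 0.767). Its relative Larp1b rose with IFN in KO (log2 1.13, adjusted p = 0.00452) and in WT (log2 1.00, adjusted p = 0.0109). Deptor, an inhibitor within mTOR complexes, fell with IFN in KO (log2 -1.68, adjusted p = 7.02e-05) and in WT (log2 -2.10, adjusted p = 1.15e-05), and Rptor, the mTORC1 subunit that recognises substrates, fell in KO cells with IFN (log2 -0.86, adjusted p = 0.00347) and with IL4 (log2 -1.01, adjusted p = 0.00279). In WT cells Rptor had 87.8 ± 14.7 CPM with IFN and 81.5 ± 17.3 CPM with IL4, against 114 ± 9.15 CPM untreated (SD, n = 3 each), without passing, and the difference of its IL4 responses, KO minus WT, was log2 -0.52 (adjusted p = 1). With IL4 Larp1 rose in WT cells (log2 0.62, adjusted p = 0.00309) and did not pass in KO cells, with a difference of log2 -0.48 (adjusted p = 1). Eef2k, the kinase that inactivates the product of Eef2, fell with IFN in KO (log2 -1.40, adjusted p = 0.000123) and in WT (log2 -1.44, adjusted p = 0.000133), while Eef2 itself had log2 -0.15 in KO and -0.06 in WT without passing. Of the 6 genes for kinases and phosphatase subunits acting on eIF2, Eif2ak2, the kinase PKR, and Ppp1r15b rose with IFN in both genotypes, Eif2ak2 by log2 1.35 in KO and 1.28 in WT (adjusted p = 0.000446 and 0.000771), and 0 of the 6 passed in any KO against WT comparison.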

How the data were processed

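RNA of bone marrow derived macrophages was purified with poly-T beads and sequenced, per the labels' protocols, in 18 libraries of 6 groups. The labels allow a directional or a non-directional library, so strand is not known. The authors deposited expected counts and TPM per gene and a signal of median-normalized TPM, per the file headers, and the submitters' processing notes name Bowtie 0.12.8, RSEM 1.2.3 and the build mm10. Of the expected counts 21.5% were not whole and were rounded. All columns were assigned to samples, with 0 left over.

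Counts were filtered with filterByExpr, normalized by TMM and tested in R 4.3.3 with the robust quasi-likelihood method of edgeR 4.0.16, where the 18 libraries entered a single model with a term for each group, for 10 comparisons. P-values were adjusted by Benjamini-Hochberg over 12514 genes, and adjusted values under 0.05 count as passing. The biological coefficient of variation was 0.301. CPM are TMM-normalized, and log2 CPM for correlations used a prior count of 2. Library totals of 18098711 to 28477342 counts make counting error small beside the spread between libraries for these genes. The code of the fit was run on simulated counts with known changes and less spread than in these data, which checks the code and not the results. Alternatives were DESeq2 1.42.0, limma 3.58.1 on the log2 scale (deposited TPM with a pseudocount of 1 or 0.1, deposited median-normalized signal with 1), other scalings, no filter, the compared groups alone, the number as a block, a covariate for Y-linked transcripts above 10 CPM, and leaving out libraries. DESeq2 was run with its default filtering.

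Same-numbered libraries of both genotypes correlated in their deviations from group means at 0.746, 0.072 and 0.573 untreated, 0.371, 0.036 and 0.265 with IFN, and 0.702, 0.561 and 0.475 with IL4, over 9712 genes. Libraries with different numbers correlated at -0.706 to 0.610 untreated, -0.334 to 0.103 with IFN and -0.618 to 0.270 with IL4. Centring groups of 3 libraries pushes some of these values below 0. The numbers were taken to pair the IL4 libraries alone. The genes and lists were chosen with earlier results of these data known. All 10 genes are named in every comparison, and of other lists up to 4 called genes with the lowest adjusted p, or, where 0 were called, up to 2 with the lowest p. The text gives a selection of these, and some items are not reported here. Sequences come from RefSeq promoters on GRCm38.p6.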

Additional observations from a re-analysis of the deposited data

Results flagged for a closer look

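The response of Tpt1 to IL4 pointed in opposite directions in the genotypes in every library. All 3 IL4-treated KO libraries were above all untreated KO libraries (log2 0.26), and all 3 IL4-treated WT libraries were below all untreated WT libraries (log2 -0.21). The difference, KO minus WT, was log2 0.47, with an unadjusted p of 0.0499 and an adjusted p of 1 by edgeR, so it did not pass the test across genes. With library totals, no filter, log2(TPM + 1) or the Y-linked covariate, 0 of the 10 genes had an unadjusted p under 0.05 for this difference. The difference uses the same untreated libraries as the untreated KO against WT comparison, where Tpt1 had log2 -0.74, so it repeats that comparison in part. Such opposite responses were looked for in 10 genes and 2 cytokines, and Tpt1 with IL4 was the only case. The share of all genes with this pattern was not counted. Groups of 3 libraries were too small to test single libraries as outliers.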

How the results depend on the processing

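Of 1990 values of single genes under alternative settings, 1960 stayed on the same side of the threshold, 30 passed it where the reported fit did not, and 117 had the opposite sign, all of them without passing in the reported fit. All 10 genes stayed below 0 in KO against WT in untreated cells and averaged over treatments in every setting, 7 to 10 with IFN and 9 to 10 with IL4.

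DESeq2 called 2 of the 10 in untreated KO against WT cells, 3 averaged over treatments, 1 for IFN in KO and 1 for IFN in WT, of 83, 201, 3075 and 2774 genes in all. For IFN in KO, 1 passed with upper quartile scaling and 2 with library totals, log2(TPM + 1) and log2(TPM + 0.1), where 2834, 3940, 4025 and 4003 of all genes passed. For IFN in WT, 1 passed with upper quartile scaling and with the median-normalized signal and 2 with library totals, log2(TPM + 1) and log2(TPM + 0.1), where 2570, 2131, 2798, 2097 and 2125 of all genes passed. For IL4 in KO, 1 passed on log2(TPM + 1) and log2(TPM + 0.1), where 1306 and 1239 of all genes passed. The medians moved on log2(TPM + 1) and log2(TPM + 0.1), to -0.21 in untreated KO against WT, -0.20 for IFN in KO, -0.0452 (pseudocount 1) and -0.0453 (pseudocount 0.1) for IL4 in KO and 0.0239 for the difference of IFN responses, and with library totals to -0.12 for IFN in KO and -0.34 for IFN in WT. In these comparisons the same scales also moved the median of all genes by over 0.1, and the cause was not tested. On log2(TPM + 1) the median was also -0.21 for KO against WT with IFN and 0.091 for the difference of IL4 responses. With the Y-linked covariate the median of KO against WT was -0.27 with IFN, -0.36 with IL4, -0.44 untreated and -0.36 averaged over treatments, with 0 of the 10 passing in each. This covariate marked no KO library, so it cannot separate sex from other differences between WT libraries.

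With the replicate block 2 genes passed in untreated KO against WT cells (Eif3e and Tpt1) and 3 averaged over treatments (Eef2, Eif3h and Eif4b). The block changed no other call of the 10, and over all genes calls with the block numbered 24 with IFN, 27 with IL4, 96 untreated and 246 averaged over treatments. DESeq2 called 42, 30, 83 and 201 genes in the same comparisons, and edgeR without the block 8, 8, 10 and 49. Untreated and IFN libraries share only a number, and a correlation under 0.1 in 1 pair of each left that pairing unsettled.

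Leaving out 1 library at a time gave medians from -0.56 to -0.27 in untreated KO against WT, 0.061 to 0.40 for the difference of IL4 responses, and 0 to 1 genes passing for IFN in KO. With 3 libraries a group, standard errors of the 10 log2 fold changes in untreated KO against WT ran from 0.12 to 0.30.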
